A study of Mus musculus with 6 samples.

Results

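Nuclear receptors are transcription factors that bind DNA through a pair of zinc fingers, and many of them are switched by a small lipid-soluble ligand such as a steroid, a retinoid, thyroid hormone or a fatty acid. Without ligand many members hold corepressors at their target genes, and ligand exchanges these for coactivators. In blood formation the retinoid receptors are known for neutrophil maturation, the peroxisome proliferator and liver X receptors for lipid handling in macrophages, the glucocorticoid receptor for stress erythropoiesis, and estrogen receptor alpha for stem cell cycling. The genes described here are 46 mouse nuclear receptor genes, chosen by symbol from a list of the superfamily, among 33924 genes listed in a count table. All 46 had a row in the table, and 29 of them had enough reads to be tested.

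RNA was sequenced from mouse bone marrow after bead depletion of cells with mature lineage markers, in 3 Stag2KO and 3 Stag2WT libraries. Cohesin, the ring complex behind chromatin loops, has the Stag2 protein as one of its subunits. Not given in the sources used here are the allele, the means of deletion, any treatment, and the age of the mice. The labels do not tell whether each library is from its own animal, and p-values then measure only the spread between these samples.

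The libraries held 29435651 to 37722325 reads assigned to genes. Stag2 itself stood at 169, 187 and 183 CPM (a gene's reads scaled to normalised library size) in the Stag2KO libraries against 338, 329 and 324 CPM in the Stag2WT libraries, so 54.4% of the level remained (log2 fold change -0.88, SE 0.06; adjusted p = 0.000278 in edgeR's quasi-likelihood test). A transcript lacking some exons still adds to such a whole-gene count. Markers of stem and progenitor cells summed to 550.3 to 655 CPM in Stag2KO and 460 to 538 CPM in Stag2WT, with 4 of 11 higher, 0 lower and no marker at 0 in any library. Markers of mature cells were also detected, so the depletion left a mixture. In such bulk samples fewer cells of a type and less RNA per cell cannot be told apart. The share of reads outside annotated genes was 11.1% to 12.8% in Stag2KO and 8.81% to 10.1% in Stag2WT libraries, a difference that cannot be told apart from genotype.

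Of the 29 tested receptor genes, 3 were higher and 4 lower in Stag2KO at an adjusted p under 0.05, and 22 were not called. Esr1, Rora and Rarg rose, and Nr4a1, Pparg, Rxra and Nr2f2 fell. The called share was 24.1% of tested receptor genes, beside 21.2% of all 15708 tested genes, so the superfamily was called about as often as genes at large. In the upward direction the shares were 10.3% of receptor genes and 10.7% of all genes, and in the downward direction 13.8% and 10.5%. The median log2 fold change was -0.06 over the tested receptor genes and 0.01 over all tested genes. The 22 receptor genes that were not called had log2 fold changes from -0.41 to 0.49. The groups did not overlap for 9 receptor genes, or 31.0%, beside 43.5% of all tested genes. These 9 were the 7 called genes, with Thra on the high side and Rarb on the low side.

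**Figure D1:**
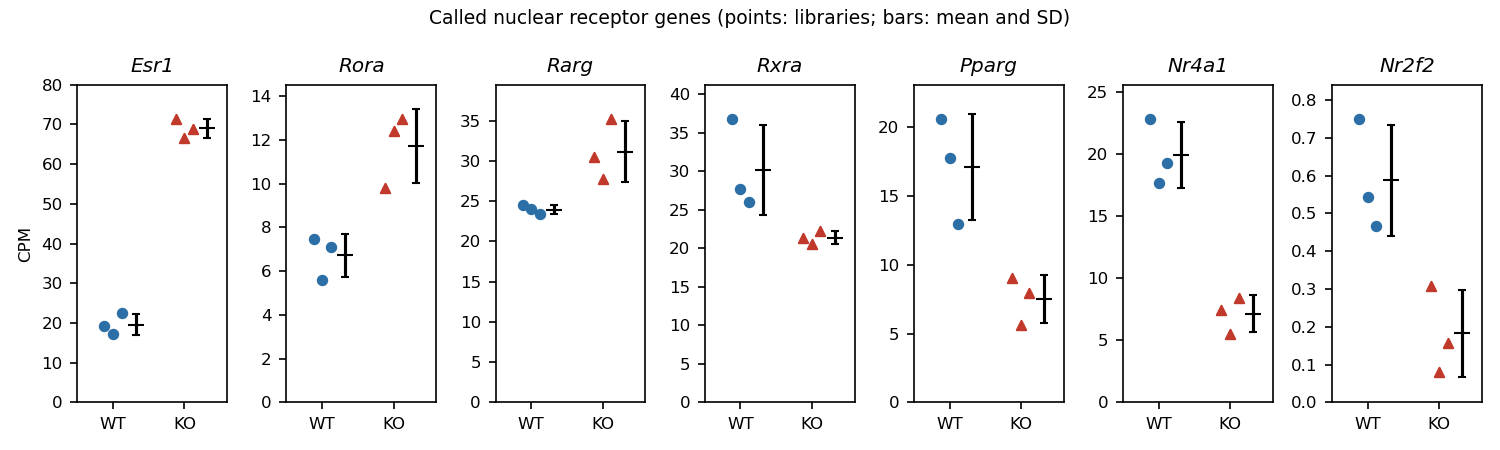
Levels in CPM (linear vertical axes from 0, scaled separately) of the 7 called receptor genes, with 1 point per library (circles Stag2WT, triangles Stag2KO) and bars for the mean and SD of 3 libraries. The groups do not overlap for any of the 7, and Esr1 sits at 66.6 to 71.5 CPM in Stag2KO against 17.2 to 22.4 CPM in Stag2WT.

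The calls of Esr1, Nr4a1, Pparg and Rora held in each of the 6 fits that left out 1 library. Those of Rarg, Rxra and Nr2f2 each held in only 1 of the 6, and their values are given with the genes below. When the share of reads outside annotated genes was entered as a covariate, Esr1 alone among the receptors stayed called (log2 fold change 1.68, adjusted p = 0.0285). That share did not overlap between the groups, so this fit cannot separate it from genotype, and no conclusion is drawn from calls lost there. In that fit 67 genes of the whole table were called, and the remaining receptors had adjusted p-values of 0.218 (Rarg), 0.223 (Nr4a1), 0.543 (Rora), 0.751 (Pparg), 0.804 (Rxra) and 0.91 (Nr2f2).

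Levels of different genes can be compared only per length, and were therefore divided by the length of each gene's merged exons. On this scale of CPM per kilobase, Nr1h2 (26.8 ± 0.212), Rxrb (24.6 ± 1.17), Nr3c1 (18.3 ± 0.985) and Thra (11.2 ± 0.740) led in the Stag2WT libraries (SD, n = 3), and the same 4 genes led in Stag2KO in the same order. The next 7 genes, from Rara at 6.28 ± 1.07 to Nr1h3 at 5.21 ± 2.34 CPM per kilobase, lay within each other's spread in Stag2WT. Esr1 ranked 16 of 29 in Stag2WT, at 1.44 ± 0.193 CPM per kilobase, next to Vdr (1.38 ± 0.171) and within its spread. In Stag2KO it ranked 8, at 5.05 ± 0.179 CPM per kilobase, between Rara (5.77 ± 0.911) and Nr2c2 (4.76 ± 0.296). Pparg moved from rank 7 to rank 15 and Nr4a1 from rank 8 to rank 16. The exon lengths come from a newer annotation than the one the reads were counted on, so the ranks are approximate.

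**Figure D2:**
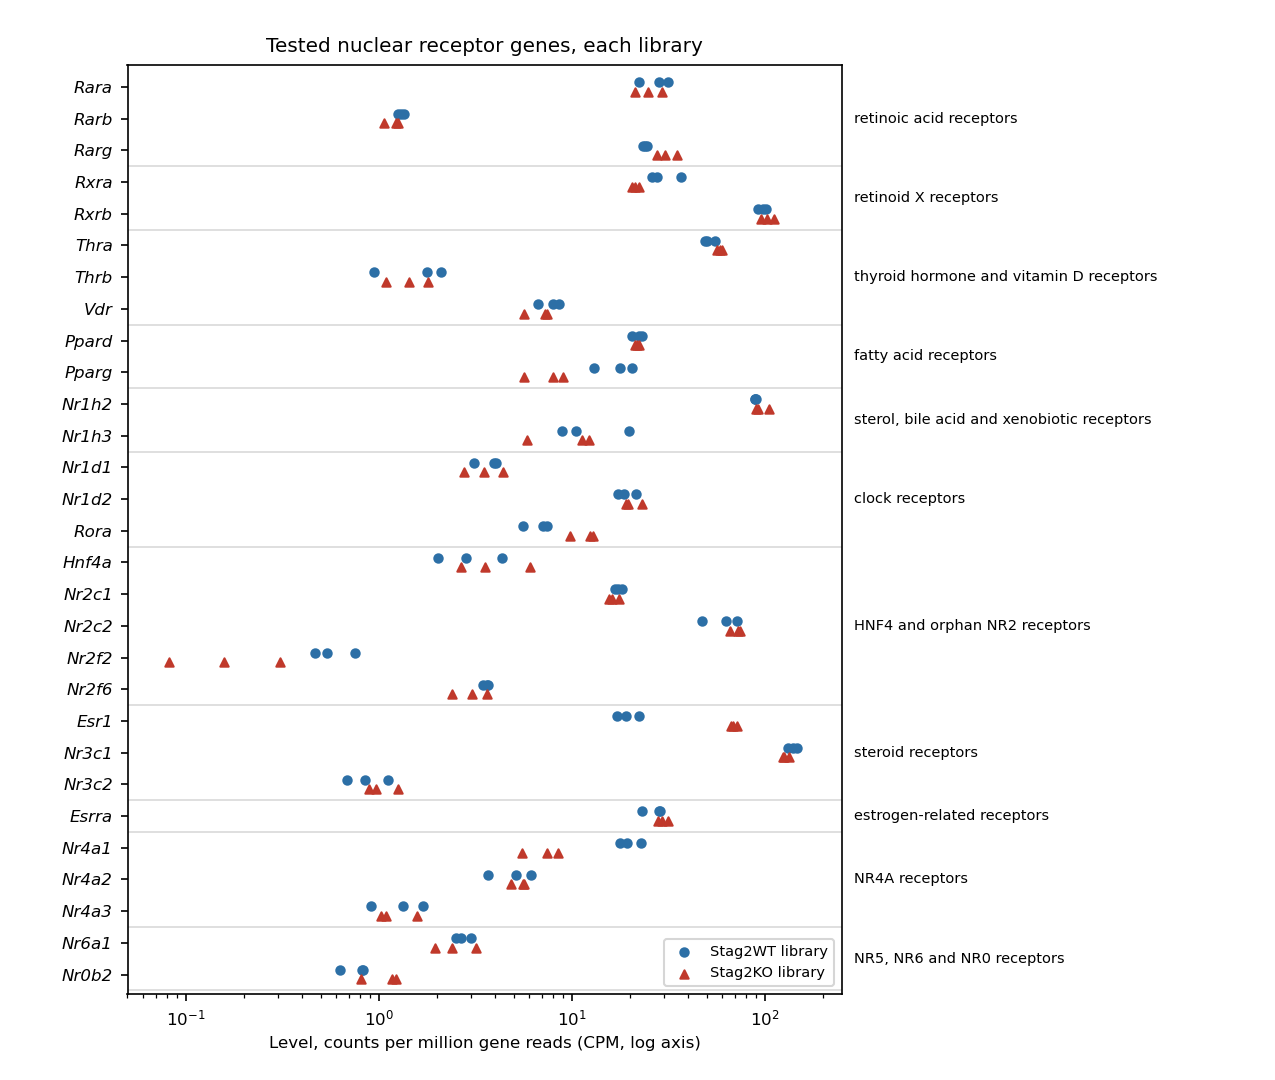
Level of each of the 29 tested receptor genes in every library, in CPM on a log axis, grouped by receptor class (circles Stag2WT, triangles Stag2KO). Levels are not divided by length here, so they compare libraries and not genes; the groups overlap for most genes, and those of the 7 called genes stand apart.

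The remaining 17 receptor genes had too few reads to be tested, with at most 13 reads in any library. Rorb, Hnf4g, Nr2e1, Nr5a1 and Nr0b1 had 0 reads in all 6 libraries. A count of 0 allows up to 0.0786 to 0.103 CPM, depending on the library and for counting error only. Ppara, Nr1i2, Nr2e3, Nr2f1, Esr2 and Esrrb had at most 3 reads in a library, while Rxrg (2 to 10 reads), Nr1h4 (0 to 6), Nr1i3 (4 to 12), Pgr (2 to 13), Esrrg (0 to 4) and Nr5a2 (0 to 9) were detected at trace levels. These genes encode mostly receptors of liver, gut, gonad, adrenal, eye and brain, among them the bile acid receptor Nr1h4 and the steroidogenic factor Nr5a1.

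Among the steroid receptors, estrogen receptor alpha and the glucocorticoid receptor were the main members detected, and only the first was called. Esr1, which encodes estrogen receptor alpha, stood at 71.5, 66.6 and 68.8 CPM in the Stag2KO libraries and at 19.2, 17.2 and 22.4 CPM in the Stag2WT libraries. Every Stag2KO library lay far above every Stag2WT library, and the spread within a group was small beside that gap. The group means were 69.0 ± 2.44 and 19.6 ± 2.64 CPM (SD, n = 3 each), so Stag2KO was at 352% of the Stag2WT level (log2 fold change 1.81, SE 0.10; adjusted p = 0.000106 in edgeR's quasi-likelihood test). Leaving out any 1 library gave log2 fold changes from 1.73 to 1.92. The second estrogen receptor gene, Esr2, had a single read in 1 Stag2KO library and none elsewhere. Pgr, the progesterone receptor gene and a classical target of estrogen receptors, was at 2 to 13 reads and was not tested.

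RefSeq places a pair of start sites for Esr1 on GRCm38.p6, and a count over the whole gene does not tell which of them was used. Their windows, from 250 bases before to 50 bases after each start, are shown because this gene had the smallest p of the family. Capitals would mark any match to the motifs searched in the promoters of the tested receptor genes.
Esr1, chr10:4611739-4612038, plus strand: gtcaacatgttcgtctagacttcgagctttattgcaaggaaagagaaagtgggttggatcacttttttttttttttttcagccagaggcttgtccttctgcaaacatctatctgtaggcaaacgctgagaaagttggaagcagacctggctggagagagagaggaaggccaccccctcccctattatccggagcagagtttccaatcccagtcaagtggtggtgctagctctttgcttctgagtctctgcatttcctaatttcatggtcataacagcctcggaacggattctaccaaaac
Esr1, chr10:4709908-4710207, plus strand: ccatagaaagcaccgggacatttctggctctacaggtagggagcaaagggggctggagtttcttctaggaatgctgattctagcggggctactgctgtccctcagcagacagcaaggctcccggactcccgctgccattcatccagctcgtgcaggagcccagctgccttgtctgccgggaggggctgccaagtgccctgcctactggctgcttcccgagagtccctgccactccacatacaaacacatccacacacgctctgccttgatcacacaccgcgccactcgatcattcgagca
Both windows are in lower case throughout, since none of the motifs was found. These motifs, read on both strands, were the nuclear receptor half-site AGGTCA (in 16.3% of 32851 RefSeq windows of this length), the CRE-like letters TGCGTCA (2.12%), the full CRE TGACGTCA (1.79%), the E-box CACGTG (7.15%), the CTCF core motif (2.43%) and the PU.1 letters GAGGAAGT (3.2%). Of 40 windows for 27 of the 29 tested receptor genes, 8 held the half-site.

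Nr3c1, which encodes the glucocorticoid receptor, was among the most highly expressed members. It was at 124, 126 and 134 CPM in Stag2KO and 148, 133 and 141 CPM in Stag2WT, with overlapping groups (log2 fold change -0.13, SE 0.06, adjusted p = 0.17). Nr3c2, the mineralocorticoid receptor gene, stayed near 1 CPM, at 0.891 to 1.25 CPM in Stag2KO and 0.685 to 1.11 CPM in Stag2WT (0.24, adjusted p = 0.558). Per exon length, Esr1 made up 22.5% to 24.4% of the sum of both in Stag2KO and 6.8% to 8.23% in Stag2WT. The log2 ratio of Esr1 to Nr3c1 was 1.95 higher in Stag2KO, with a two-sided exact permutation p of 0.1, the smallest that 3 against 3 libraries allow. Such a ratio was formed for the leading pair of tested genes, by level per kilobase, in each of 10 receptor classes. The Benjamini-Hochberg adjusted p of the Esr1 to Nr3c1 ratio over these 10 was 0.143. In 5 of the 10 pairs 1 gene was itself called, so those ratios restate its call.

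Genes that estrogen receptors are known to induce in breast or uterus did not rise as a group. Of 10 tested genes on that list, 1 was higher, 4 lower and 5 not called, and their median log2 fold change was -0.16. Cited2, a transcriptional coregulator gene needed for stem cell maintenance, rose from 102 ± 5.61 to 180.5 ± 19.6 CPM (0.82, adjusted p = 0.00114). Ccnd1, encoding cyclin D1, fell by 1.20 (adjusted p = 0.00221), the chemokine gene Cxcl12 by 1.25 (adjusted p = 0.00827), the cathepsin gene Ctsd by 0.51 (adjusted p = 0.0108) and the trace-level ligand gene Wnt4 by 2.22 (adjusted p = 0.0118). All 5 calls held in each fit without 1 library. Greb1, a classical estrogen target, was at trace level and not called (0.78, adjusted p = 0.255). Cxcl12 is also on the stromal marker list, where 8 of 13 genes were lower and 1 higher, and which summed to 252 to 313 CPM in Stag2KO and 374 to 425 CPM in Stag2WT; the part of stromal cells in these values was not tested.

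Genes around the glucocorticoid receptor changed in part. Of the 7 genes for its chaperone complex, 5 were lower, 0 higher and 2 not called. The list summed to 4979, 5040.3 and 5288 CPM in the Stag2KO libraries and 6127, 9046 and 7412 CPM in the Stag2WT libraries, with Stag2WT replicate 2 highest. That library was also highest in the sum of immediate early genes, at 150.6 CPM against 90.1 and 101 CPM in the other Stag2WT libraries. Erythroid markers were lower for 4 of 10 genes and higher for 0, with none at 0, and summed to 1233 to 1635 CPM in Stag2KO and 1662 to 2718 CPM in Stag2WT, again highest in Stag2WT replicate 2. The part of either in the chaperone values was not tested. Hsp90aa1, encoding the inducible HSP90 chaperone, fell from 1268 ± 273 to 699 ± 18.6 CPM (-0.86, adjusted p = 0.00624), and this call held without any 1 library. Hspa8 (-1.04, adjusted p = 0.0387), Ptges3 (-0.40, adjusted p = 0.0223), Fkbp4 (-0.42, adjusted p = 0.0289) and Stip1 (-0.55, adjusted p = 0.0358), which encode HSC70 and HSP90 cochaperones, also fell. Leaving out 1 library ended these 4 calls in part. Hspa8 was lost without Stag2KO replicate 1 (0.0931), 2 (0.111) or 3 (0.0576) or Stag2WT replicate 3 (0.0623), and Ptges3 without Stag2KO replicate 2 (0.0651) or 3 (0.0696) or Stag2WT replicate 3 (0.0533). Fkbp4 was lost without Stag2KO replicate 2 (0.092) or 3 (0.084) or Stag2WT replicate 2 (0.0686) or 3 (0.066), and Stip1 without Stag2KO replicate 1 (0.0654), 2 (0.108) or 3 (0.0973) or Stag2WT replicate 3 (0.0666). With no filter beyond 1 read Hspa8 (0.106) and Stip1 (0.0534) were not called.

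Among 15 known glucocorticoid targets 2 were higher, 3 lower and 10 not called, with a median log2 fold change of -0.20. Zbtb16, encoding the PLZF transcription factor, rose (0.96, adjusted p = 0.00192), as did Anxa1, encoding the anti-inflammatory protein annexin A1 (0.57, adjusted p = 0.00134). The metallothionein gene Mt2 fell by 0.86 (adjusted p = 0.00197) and the TGF-beta coreceptor gene Tgfbr3 by 0.76 (adjusted p = 0.00314). The mTOR inhibitor gene Ddit4 fell from 43.5 ± 4.65 to 21.7 ± 6.34 CPM (adjusted p = 0.0157). The Ddit4 call was lost without Stag2WT replicate 2 (0.0634), and the other 4 held without any 1 library. Tsc22d3 (-0.47, adjusted p = 0.0684) and Fkbp5 (-0.20, adjusted p = 0.169), which are the usual reporters of this receptor, were not called.

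The estrogen-related receptor gene Esrra, a regulator of mitochondrial genes, was at 28.0 to 31.4 CPM in Stag2KO and 23.1 to 28.6 CPM in Stag2WT and was not called (0.15, adjusted p = 0.327). Esrrb and Esrrg were not tested.

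The NR4A receptors are ligand-independent and belong to the immediate early genes, which respond within minutes to growth factor, antigen receptor or stress signals. Nr4a1, encoding NUR77, is also required for the patrolling type of monocyte. Its level was 7.44, 5.53 and 8.46 CPM in Stag2KO and 22.9, 17.7 and 19.3 CPM in Stag2WT. All Stag2KO libraries lay below all Stag2WT libraries, at 35.8% of their mean (log2 fold change -1.48, SE 0.17; adjusted p = 0.0017 in edgeR's quasi-likelihood test). Leaving out any 1 library gave log2 fold changes from -1.62 to -1.33. Its relatives Nr4a2 (0.10, adjusted p = 0.753) and Nr4a3 (-0.09, adjusted p = 0.852) were not called, with Nr4a2 at 4.85 to 5.63 CPM in Stag2KO and 3.67 to 6.17 CPM in Stag2WT. Per exon length, Nr4a2 made up 36.5% to 43.1% of the sum of Nr4a1 and Nr4a2 in Stag2KO and 12.2% to 23.1% in Stag2WT.

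The Nr4a1 window is shown because it alone, among windows of 27 tested receptor genes, held the CRE-like letters TGCGTCA, and it held them 4 times. Nr3c1 and Thra had no window searched. Capitals mark these and 1 match to the CTCF core, which reads GCCTCCTCCTGG on this strand.
Nr4a1, chr15:101266596-101266895, plus strand: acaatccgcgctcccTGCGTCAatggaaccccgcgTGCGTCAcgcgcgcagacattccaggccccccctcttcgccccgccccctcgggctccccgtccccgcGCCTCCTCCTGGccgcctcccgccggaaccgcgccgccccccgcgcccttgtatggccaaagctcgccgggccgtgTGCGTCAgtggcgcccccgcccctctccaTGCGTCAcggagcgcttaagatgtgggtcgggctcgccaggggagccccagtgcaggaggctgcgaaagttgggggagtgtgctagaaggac
The 4 copies begin 235, 215, 71 and 42 bases before the RefSeq start. A match of letters is a description and does not show that a factor was bound in these cells.

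Other immediate early genes did not pass the test in the same fit. Of 8 such genes edgeR's quasi-likelihood test called 0, with 2 at an unadjusted p under 0.05, while DESeq2 called 2 and limma-voom 0. The DESeq2 calls were Egr1 and Fos, which in edgeR had log2 fold changes of -2.01 (adjusted p = 0.111) and -1.99 (adjusted p = 0.0668). In Stag2KO Egr1 was at 2.54 to 4.14 CPM and Fos at 2.88 to 5.79 CPM, below every Stag2WT library. The groups overlapped for each of the remaining genes of the list. Stag2WT replicate 2 stood apart for Egr1, at 26.5 CPM against 4.67 and 8.08 CPM in the other Stag2WT libraries. It stood apart for Fos too, at 28.2 CPM against 7.87 and 11.1 CPM. Without that library the log2 fold changes were -0.98 (adjusted p = 0.0807) and -1.26 (adjusted p = 0.0603), and without Stag2WT replicate 1 both genes were called (0.0462 and 0.0436). The median log2 fold change of the 8 genes was -0.44, and they summed to 73.8 to 95.1 CPM in Stag2KO and 90.1 to 150.6 CPM in Stag2WT, with overlapping groups and no gene at 0. Monocyte markers were mostly lower in Stag2KO too. Of 8 monocyte genes 5 were lower and 0 higher, and the list summed to 1230.0 to 1378 CPM in Stag2KO and 1498 to 1782 CPM in Stag2WT. Ccr2 (0.77, adjusted p = 0.16) and Cx3cr1 (-0.45, adjusted p = 0.295) were among those not called. Within Stag2KO the monocyte sum was highest in replicate 2, where Nr4a1 was lowest. Ccr2 was highest there as well, at 499 CPM against 310 and 228 CPM in replicates 1 and 3. Ly6c2 was lowest there, at 276 CPM against 378 and 383 CPM, so the order of the sum is not that of each gene. The part of monocytes in the Nr4a1 difference was not tested.

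**Figure D3:**
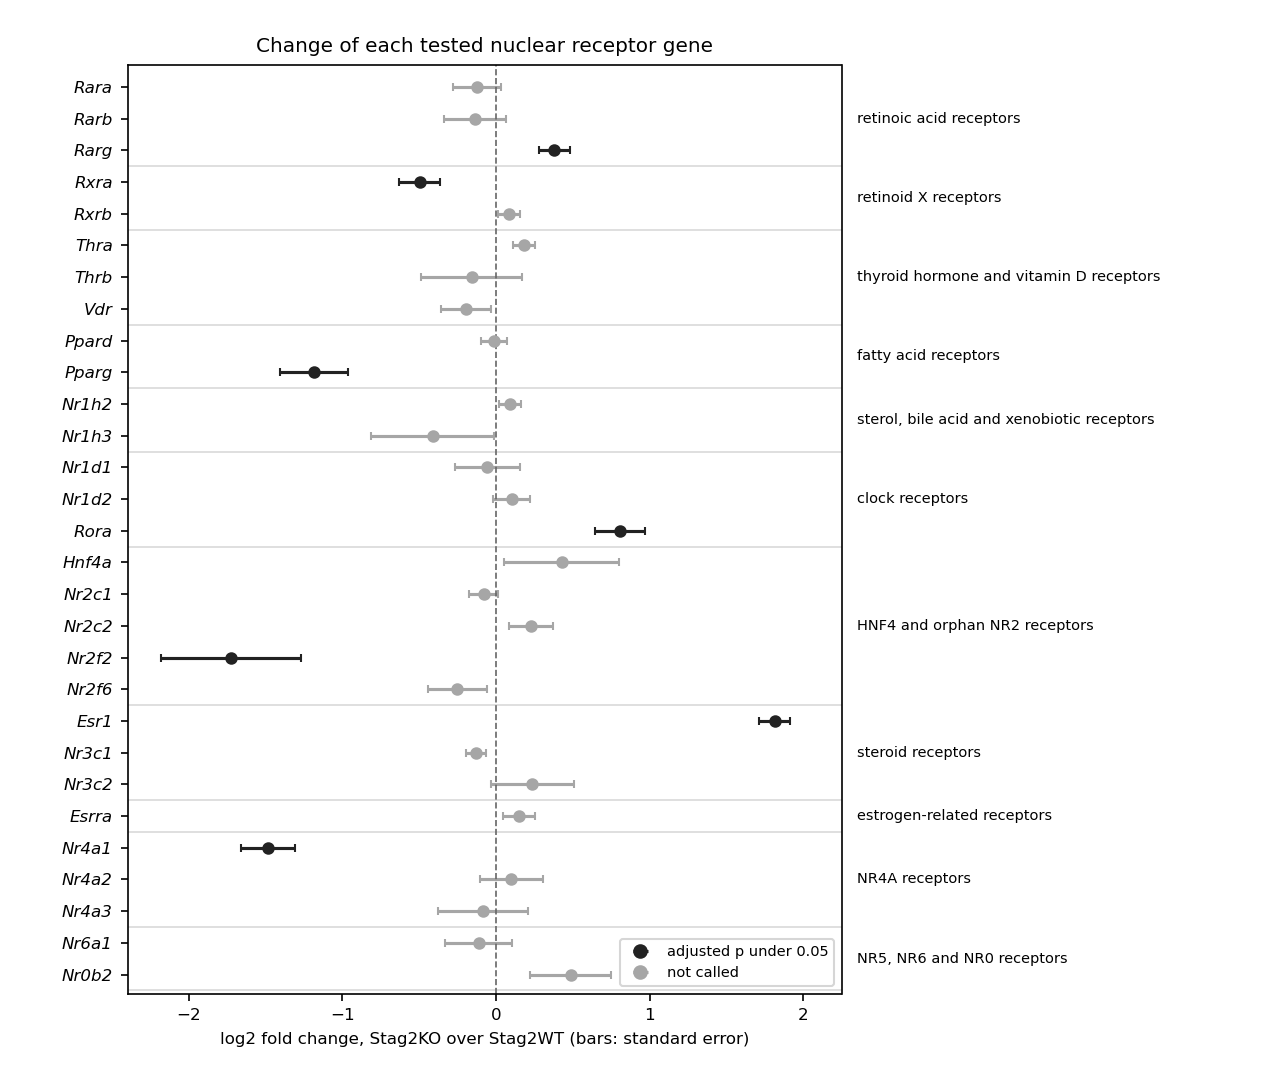
Log2 fold change of Stag2KO over Stag2WT for each tested receptor gene, grouped by class, with standard errors as bars (black, adjusted p under 0.05; grey, not called). Called genes are spread over 7 classes, 1 in each, from Esr1 at 1.81 to Nr2f2 at -1.73.

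Of the fatty acid receptors, Pparg fell and Ppard was not called. Pparg, which encodes the receptor that drives adipocyte formation and lipid uptake by macrophages, was at 9.01, 5.64 and 7.96 CPM in Stag2KO and 20.6, 17.8 and 12.99 CPM in Stag2WT. The groups did not overlap, and Stag2KO was at 44.0% of the Stag2WT mean (log2 fold change -1.19, SE 0.22, adjusted p = 0.00989). Without 1 library the log2 fold change ran from -1.35 to -1.01 and the adjusted p reached at most 0.0405. Ppard, the broadly expressed member, was at 21.2 to 22.4 CPM in Stag2KO and 20.6 to 23.0 CPM in Stag2WT (-0.01, adjusted p = 0.935). Ppara had at most 1 read in a library. Per exon length, Ppard made up 48.1% to 60.2% of the sum of Ppard and Pparg in Stag2KO and 30.5% to 40.2% in Stag2WT.

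RefSeq gives 3 Pparg start sites on GRCm38.p6. The upstream pair is shown because each window holds 1 copy of the half-site AGGTCA, in capitals; it begins 28 bases before the first start and 9 bases before the second.
Pparg, chr6:115360894-115361193, plus strand: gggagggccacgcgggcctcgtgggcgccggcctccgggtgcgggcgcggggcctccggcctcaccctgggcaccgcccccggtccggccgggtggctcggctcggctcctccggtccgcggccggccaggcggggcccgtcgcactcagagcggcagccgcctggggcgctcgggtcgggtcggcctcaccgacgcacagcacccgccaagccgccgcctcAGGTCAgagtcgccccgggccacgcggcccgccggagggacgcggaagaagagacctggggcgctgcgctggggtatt
Pparg, chr6:115362099-115362398, plus strand: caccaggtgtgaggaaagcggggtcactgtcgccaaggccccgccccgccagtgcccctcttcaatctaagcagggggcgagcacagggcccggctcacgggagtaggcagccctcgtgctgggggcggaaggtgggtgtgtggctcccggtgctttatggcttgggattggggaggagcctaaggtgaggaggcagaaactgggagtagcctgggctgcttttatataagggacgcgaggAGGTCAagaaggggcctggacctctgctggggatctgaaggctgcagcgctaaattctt
The window of the third start held none of the motifs, and reads cannot be divided among the 3 starts here.

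Of 18 tested genes that the fatty acid receptors are known to induce, 5 were lower, 0 higher and 13 not called, with a median log2 fold change of -0.06. Pdk4, encoding a kinase that spares glucose, fell by 1.44 (adjusted p = 0.0133), and the lipid droplet coat gene Plin2 fell by 0.48 (adjusted p = 0.0139). The mitochondrial carrier genes Ucp2 (-0.37, adjusted p = 0.0112) and Ucp3 (-1.13, adjusted p = 0.0239) fell too, as did the acyl-CoA dehydrogenase gene Acadl (-0.19, adjusted p = 0.0431). Pdk4 and Ucp3 stood near 1 CPM or below. Calls were lost for Plin2 without Stag2WT replicate 2 (0.0563), for Ucp3 in every such fit (0.0541 to 0.0793) except that without Stag2KO replicate 1, and for Acadl without any 1 library (0.0622 to 0.118) and with no filter beyond 1 read (0.0705). The fatty acid oxidation genes Cpt1a (0.10), Acadm (0.07) and Hadha (-0.08) and the scavenger receptor gene Cd36 (-0.04) were not called.

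The liver X receptors sense oxidised cholesterol and induce genes for its export. Nr1h2, encoding the widespread LXR beta, was at 89.9 to 105 CPM in Stag2KO and 89.3 to 90.6 CPM in Stag2WT (0.09, adjusted p = 0.375). Nr1h3, encoding the macrophage-enriched LXR alpha, varied within both groups, at 11.4, 5.85 and 12.3 CPM in Stag2KO and 19.8, 10.6 and 8.90 CPM in Stag2WT. The groups overlapped and it was not called (-0.41, SE 0.40, adjusted p = 0.496), and without Stag2WT replicate 1 the value was 0.015.

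Although neither receptor was called, known liver X receptor targets were often lower. Of 15 tested targets 7 were lower, 1 higher and 7 not called, with a median log2 fold change of -0.72 beside 0.01 over all tested genes. Apoe, encoding the lipid carrier apolipoprotein E, fell from 338 ± 48.9 to 131 ± 21.5 CPM (-1.37, adjusted p = 0.00192), and the fatty acid desaturase gene Scd1 from 35.1 ± 9.21 to 7.38 ± 1.22 CPM (-2.25, adjusted p = 0.00142). The apolipoprotein gene Apoc2 fell by 2.23 (adjusted p = 0.00429) and the cholesterol exporter gene Abca1 by 0.72 (adjusted p = 0.005). The macrophage genes Cd5l (-2.48, adjusted p = 0.0121) and Mertk (-2.37, adjusted p = 0.0105) and the lipase gene Lpl (-1.78, adjusted p = 0.00561) made up the rest. Scd2, the desaturase gene of many non-hepatic cells, rose (0.37, adjusted p = 0.0282). The exporter gene Abcg1 (0.17), the LDL receptor regulator gene Mylip (-0.03), the lipogenic factor gene Srebf1 (0.14) and the phospholipid enzyme gene Lpcat3 (0.04) were not called. Among these calls, Cd5l was lost without Stag2KO replicate 3 (0.0665), and Scd2 without Stag2KO replicate 2 (0.0614) or 3 (0.0882) or Stag2WT replicate 1 (0.0753) or 3 (0.0737).

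Macrophage markers were mostly lower in Stag2KO, as were Pparg and several of these targets. Of 14 macrophage markers 12 were lower, 0 higher and 2 not called, and none was at 0 in a library. Together they summed to 241 to 376 CPM in Stag2KO and 1134 to 1240.0 CPM in Stag2WT. Mertk stands on both the target and the marker list, and Lpl on the stromal list. The part of macrophage number in the Pparg and target values was not tested.

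Among retinoic acid receptors and their dimer partners, Rarg rose and Rxra fell, and Rara, Rarb and Rxrb were not called. Rarg, the receptor known for stem cell maintenance, was at 30.5, 27.7 and 35.3 CPM in Stag2KO and 24.5, 24.0 and 23.4 CPM in Stag2WT, with no overlap (log2 fold change 0.38, SE 0.10, adjusted p = 0.0331). That call held only without Stag2KO replicate 2 (0.0284). The adjusted p was 0.0675 and 0.113 without Stag2KO replicates 1 and 3, and 0.0651, 0.0748 and 0.0814 without Stag2WT replicates 1, 2 and 3. Rara, the receptor of granulocyte maturation, was at 24.9, 21.3 and 29.3 CPM in Stag2KO and 31.6, 22.4 and 28.2 CPM in Stag2WT and was not called (-0.12, adjusted p = 0.598). Rara made up 42.9% to 44.8% of the sum of Rara and Rarg per exon length in Stag2KO and 47.6% to 55.7% in Stag2WT. Rarb stayed at 1.06 to 1.25 CPM in Stag2KO and 1.26 to 1.35 CPM in Stag2WT (-0.14, adjusted p = 0.656).

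Retinoid X receptors pair with the retinoic acid, thyroid hormone, vitamin D, fatty acid and liver X receptors. Rxra, a main dimer partner in myeloid cells, was at 21.3, 20.5 and 22.3 CPM in Stag2KO and 36.8, 27.6 and 26.0 CPM in Stag2WT. The Stag2KO libraries lay close together and below all Stag2WT libraries, of which replicate 1 was highest (log2 fold change -0.50, SE 0.13, adjusted p = 0.0333). The call held only without Stag2WT replicate 3 (0.0286). The adjusted p was 0.0787, 0.0958 and 0.0657 without Stag2KO replicates 1, 2 and 3, and 0.0594 and 0.0507 without Stag2WT replicates 1 and 2. Rxrb was at 96.2 to 112 CPM in Stag2KO and 92.6 to 102 CPM in Stag2WT (0.08, adjusted p = 0.43) and was the dominant member per exon length. Rxra made up 12.2% to 13.7% of the sum of both in Stag2KO and 15.7% to 22.4% in Stag2WT. Rxrg was detected at trace level only.

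Of 8 tested genes for retinoid metabolism and response, 2 were lower, 0 higher and 6 not called, with a median log2 fold change of -0.18. Aldh1a1, encoding an enzyme that makes retinoic acid, fell from 94.3 ± 31.1 to 29.0 ± 5.34 CPM (-1.70, adjusted p = 0.0127), a call lost without Stag2KO replicate 2 (0.0504). By library it was at 33.3, 30.6 and 23.0 CPM in Stag2KO and 89.8, 127 and 65.7 CPM in Stag2WT. The erythroid marker sums stood in the same order within each group, at 1635, 1609 and 1233 CPM in Stag2KO and 2246, 2718 and 1662 CPM in Stag2WT, and their part in the Aldh1a1 difference was not tested. Tgm2, a transglutaminase gene induced by retinoic acid, fell by 0.82 (adjusted p = 0.00413). Dhrs3, a retinaldehyde reductase gene that reports receptor activity in many cells, was not called (0.26, adjusted p = 0.287), nor was Cyp26b1, encoding an enzyme that degrades retinoic acid (0.94, adjusted p = 0.0981).

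Thyroid hormone and vitamin D receptors were not called. Thra, the main thyroid hormone receptor gene of marrow, was at 60.5, 58.8 and 56.5 CPM in Stag2KO and 50.5, 48.9 and 55.5 CPM in Stag2WT; the groups did not overlap, yet the adjusted p was 0.1 (log2 fold change 0.18, SE 0.07). Thra and the clock gene Nr1d1 share exon bases on opposite strands. Reads that fitted more than 1 gene were set aside as ambiguous, at 2.02% to 2.2% of a library's table total. Without a stated strand setting it is not known whether reads from the shared stretch were among them. Thrb was at 0.942 to 2.11 CPM over all libraries (-0.16, adjusted p = 0.758). Vdr was at 5.69 to 7.41 CPM in Stag2KO and 6.71 to 8.60 CPM in Stag2WT (-0.20, adjusted p = 0.405).

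In the thyroid hormone pathway 1 gene was higher and 2 lower. Dio2, encoding the deiodinase that converts thyroxine to active hormone, rose from 44.9 ± 3.60 to 118 ± 7.11 CPM (a log2 difference of 1.39 with SE 0.08 and adjusted p = 0.000106), and stayed called with the covariate above (1.38, adjusted p = 0.0285). Slc16a10, a transporter gene for thyroid hormone and aromatic amino acids, fell by 0.59 (adjusted p = 0.00954). Thrsp, a hormone-responsive lipogenic gene at under 1 CPM, fell by 2.17 (adjusted p = 0.019) and lost the call without Stag2KO replicate 2 (0.0605) or 3 (0.0591) or Stag2WT replicate 1 (0.0532). Of the 7 tested genes these 3 were called, and the target gene Klf9 was not (0.07, adjusted p = 0.625). Among 5 tested vitamin D genes, Cd14 (-2.14, adjusted p = 0.0139) and Spp1 (-1.24, adjusted p = 0.0199) were lower and 3 were not called. The Spp1 call was lost without Stag2KO replicate 2 (0.0736) or 3 (0.0732). Cd14 is also a monocyte marker.

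Receptors of the circadian clock form a loop in which ROR proteins activate and REV-ERB proteins repress Arntl, the core clock gene. Rora, also known for innate lymphoid cells, was at 9.80, 12.4 and 12.97 CPM in Stag2KO and 7.46, 5.60 and 7.08 CPM in Stag2WT. All Stag2KO libraries lay above all Stag2WT libraries, at 175% of their mean (log2 fold change 0.81, SE 0.16, adjusted p = 0.0122), and without 1 library the value ran from 0.69 to 0.92. Rora shares some exon bases with another listed gene, and whether reads there were set aside as ambiguous is likewise not known. The REV-ERB genes Nr1d1 (-0.06, adjusted p = 0.865) and Nr1d2 (0.10, adjusted p = 0.564) were not called, at 2.78 to 4.38 and 17.3 to 23.1 CPM over all libraries. Markers of T, natural killer and innate lymphoid cells summed to 420 to 516.5 CPM in Stag2KO and 349 to 440 CPM in Stag2WT. The sums overlapped, with 1 of 11 genes higher and 5 lower. Nkg7, the 1 higher gene, was the largest part, at 252 to 326 CPM in Stag2KO and 186 to 209 CPM in Stag2WT. The 5 lower genes were Cd3e, Cd3g, Cd8a, Thy1 and Il7r, so the sum does not follow 1 cell type. The part of innate lymphoid cells in the Rora value was not tested. The hour at which marrow was taken, not given in the sources used here, bears on clock genes, and its part was not tested.

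Of 17 tested clock genes 6 were higher, 1 lower and 10 not called, with a median log2 fold change of 0.26. Per3, a period gene, rose from 36.5 ± 4.25 to 57.5 ± 3.94 CPM (0.65, adjusted p = 0.00389) and Csnk1e, encoding a kinase of period proteins, from 47.8 ± 6.18 to 69.9 ± 1.85 CPM (0.55, adjusted p = 0.00624). Nfil3, a repressor gene in the loop, rose (0.44, adjusted p = 0.0172), and the related output genes Hlf (0.49, adjusted p = 0.0277) and Tef (0.40, adjusted p = 0.0286) rose as well, as did Per2 (0.33, adjusted p = 0.0446). Arntl fell by 0.43 (adjusted p = 0.0293). The calls of Per3 and Csnk1e held without any 1 library. Nfil3 was lost without Stag2KO replicate 1 (0.0522) or 3 (0.0646) or Stag2WT replicate 1 (0.0509), and Arntl without Stag2KO replicate 2 (0.0808) or 3 (0.0536) or Stag2WT replicate 1 (0.076) or 2 (0.0778). Hlf kept its call only without Stag2KO replicate 3 (0.0571 to 0.074 in the others) and Tef only without Stag2WT replicate 1 (0.0522 to 0.0867 in the others), while Per2 lost it without any 1 library (0.0605 to 0.133). Hlf is also a stem cell marker gene.

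The orphan receptors were called in 1 case, at trace level. Nr2f2, encoding COUP-TFII of mesenchymal and venous cells, had 9, 3 and 6 reads in the Stag2KO libraries and 27, 19 and 16 reads in the Stag2WT libraries. These correspond to 0.182 ± 0.115 and 0.587 ± 0.147 CPM (log2 fold change -1.73, SE 0.46, adjusted p = 0.0322). The call held only without Stag2KO replicate 1 (0.024). The adjusted p was 0.0913 and 0.0906 without Stag2KO replicates 2 and 3, 0.0898, 0.0758 and 0.0517 without Stag2WT replicates 1, 2 and 3, and 0.0503 in DESeq2. Nr2f2 too shares exon bases with another listed gene. The stromal marker sums were lower alongside, as given above. Endothelial markers summed to 162 to 183 CPM in Stag2KO and 142 to 171 CPM in Stag2WT, with 4 of 7 higher and 1 lower. The 4 higher were Pecam1, Flt1, Tie1 and Emcn. Pecam1 made up most of the sum, at 108 to 124 CPM in Stag2KO and 86.2 to 102 CPM in Stag2WT. Stab2 was lower (-1.39, adjusted p = 0.00111), and Cdh5 (-0.56, adjusted p = 0.217) and Kdr (-0.52, adjusted p = 0.366) were not called. The part of stromal and endothelial cells in the Nr2f2 reads was not tested. Nr2c2 was at 66.1, 74.3 and 73.0 CPM in Stag2KO and 63.0, 47.3 and 71.7 CPM in Stag2WT (0.23, adjusted p = 0.282); with Nr2c1 (-0.08, adjusted p = 0.577) it encodes the testicular receptors, repressors of embryonic globin genes. Nr2f6, a lymphocyte repressor gene, was at 2.396 to 3.68 CPM (-0.25, adjusted p = 0.368), and Hnf4a, the hepatocyte factor gene, at 2.03 to 6.10 CPM over all libraries (0.43, adjusted p = 0.44). Neither the germ cell factor gene Nr6a1 (-0.11, adjusted p = 0.743) nor the corepressor-like Nr0b2 (0.49, adjusted p = 0.217) was called.

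Corepressors and coactivators, which the receptors share, were mostly not called, as were genes at large, of which 21.2% were called. Of 10 corepressor genes 0 were called by edgeR's quasi-likelihood test, 2 had an unadjusted p under 0.05, DESeq2 called 1 (Gps2) and limma-voom 0. The uncalled genes included Ncor1 (0.10, adjusted p = 0.292) and Hdac3 (0.02, adjusted p = 0.888). Of 16 coactivator genes, Ncoa2 was higher (0.31, adjusted p = 0.0375), Ncoa7 was lower (-0.40, adjusted p = 0.0222) and 14 were not called, with a median log2 fold change of 0.04. The Ncoa2 call held only without Stag2WT replicate 3 (0.0414), with 0.0518 to 0.102 in the others. Ncoa7 was lost without Stag2KO replicate 1 (0.0647) or 2 (0.0552) or Stag2WT replicate 2 (0.0583).

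**Figure D4:**
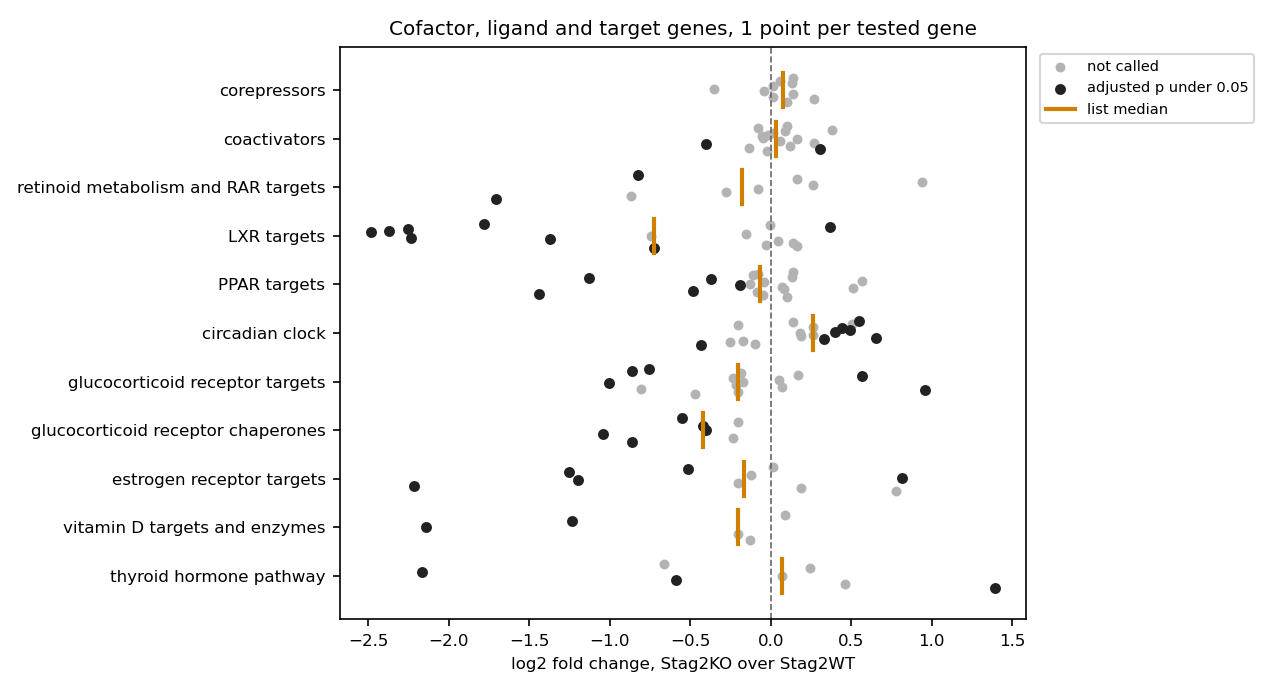
Log2 fold change of each tested cofactor, ligand pathway and target gene, 1 row per list (black, adjusted p under 0.05; grey, not called; orange bar, list median). The liver X receptor targets have the lowest median, at -0.72, and the corepressors hold no called gene.

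**Figure D5:**
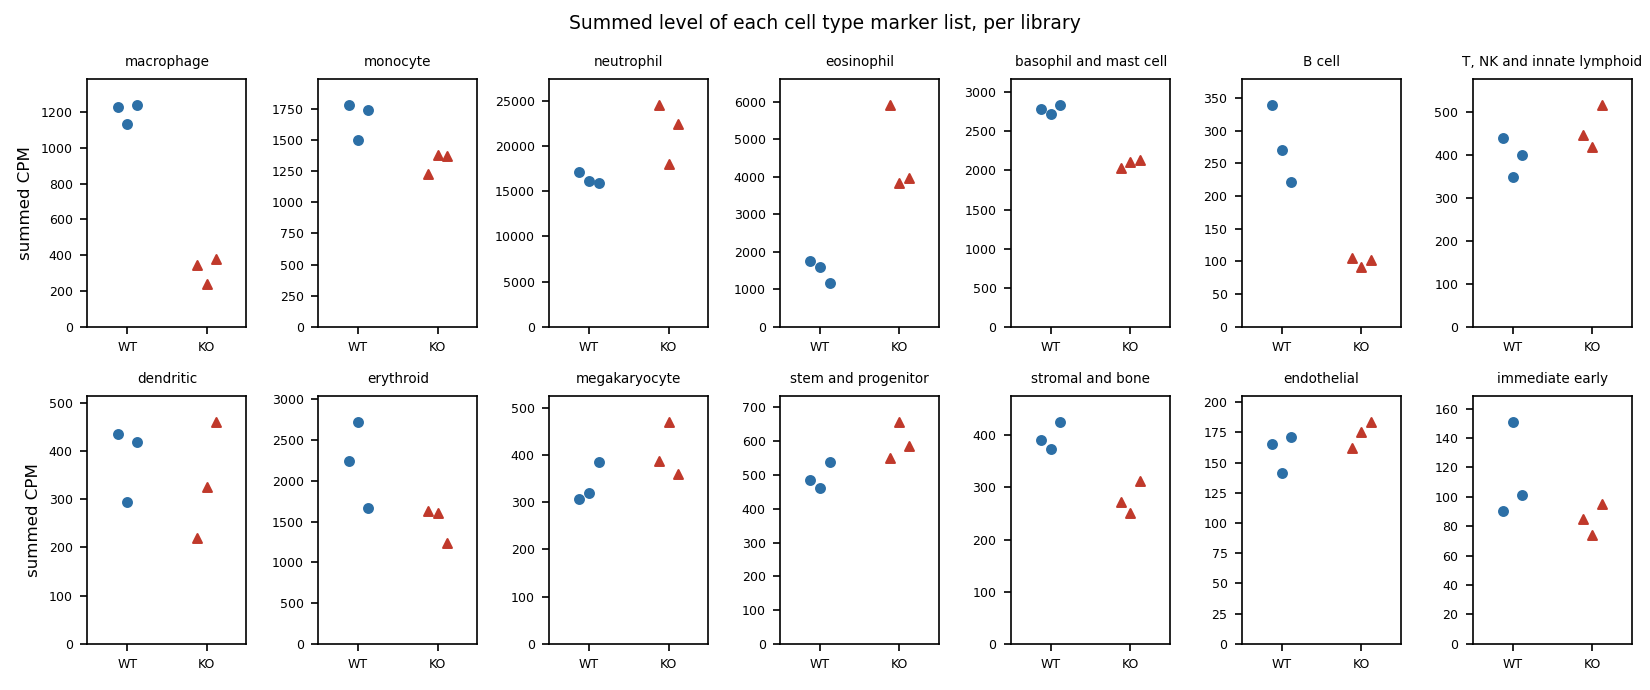
Summed CPM of each cell type marker list per library (circles Stag2WT, triangles Stag2KO; linear vertical axes from 0, scaled separately). Sums of macrophage, monocyte, B cell, basophil and mast cell, erythroid and stromal markers are lower in every Stag2KO library than in any Stag2WT library. Those of eosinophil, neutrophil and stem and progenitor markers are higher, and the groups overlap for the remaining lists.

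Eosinophil, neutrophil, B cell, and basophil and mast cell markers also differed between the groups. Of 9 eosinophil markers 7 were higher and 0 lower, and they summed to 3834 to 5910.0 CPM in Stag2KO against 1160.0 to 1742 CPM in Stag2WT. Neutrophil markers were higher for 6 of 13 genes (Elane, Mpo, Prtn3, Ctsg, Csf3r and Cebpe) and lower for 0. The 7 not called ran in log2 fold change from -0.62 (Mmp8) to 0.91 (Retnlg). Mpo was the largest part of the neutrophil sum, at 7053 to 7995 CPM in Stag2KO and 4510 to 5624 CPM in Stag2WT. All 10 B cell markers were lower. Of 7 basophil and mast cell markers 2 were higher and 3 lower. They summed to 2033 to 2129 CPM in Stag2KO and 2726 to 2837 CPM in Stag2WT. No marker of these lists was at 0. Whether the rises of Esr1, Rora and Rarg lay in any of these cells was not tested.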

How the data were processed

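The authors deposited raw read counts per gene symbol for the 6 libraries. Their upstream tools were STAR 2.4, HTSeq 0.6.1 and DESeq2 on mm9, per the submitters' processing notes, with annotation and strand setting not given in the sources used here. Counter rows naming no gene entered neither library sizes nor tests; reads outside annotated genes were 8.81% to 12.8% of a library's table total. Groups came from the genotype label, and replicates were numbered in accession order.

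Counts were fitted in R 4.3.3 with edgeR 4.0.16 after TMM normalisation and default filterByExpr. The robust quasi-likelihood model had a genotype term alone; p-values of 15708 genes were adjusted by Benjamini-Hochberg and called under 0.05. Every adjusted p of a gene comes from this fit unless another is named. Each SE is the absolute log2 fold change divided by the square root of the quasi-likelihood F statistic, and is approximate. As alternatives, DESeq2 1.42.0, limma-voom (limma 3.58.1), size factors by median ratio, filters of 1 read or of 5 CPM in 3 libraries, no robust dispersion, each library left out, and a covariate for reads outside annotated genes were run. Depth was 29435651 to 37722325 gene reads, and limits cover counting error only.

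Exon lengths were merged from a GENCODE annotation of GRCm38, and promoter windows came from RefSeq (GRCm38.p6), matched by symbol; no coordinates were converted. Of the 29 tested receptor genes, 10 share exon bases with another listed gene in that annotation, Rora and Nr2f2 among those called. Ciart, Adgre1 and Siglecf were found under older symbols. Class ratios and promoter motifs were added after values were seen. Members and lists were chosen with earlier results of these data known. All tested receptor genes are named. Of the pathway lists, called genes are named by smallest p, up to 4 a list, and those beyond 4 and most uncalled genes were named after their values were seen. For every list, the called counts stand beside 21.2% called over all tested genes, 10.7% higher and 10.5% lower. Marker lists are given by counts and sums, except Egr1 and Fos. Genes named with the T cell, endothelial, monocyte and neutrophil lists were added after their values were seen.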

Additional observations from a re-analysis of the deposited data

How the results depend on the processing

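The count of called genes was 3333 in the whole table and 1967 to 2548 when 1 library was left out; called receptor genes numbered 7 and then 4 to 5, with 2 to 3 higher and 2 to 3 lower, and called genes of the pathway lists 44 and then 28 to 36. Fits without 1 library hold fewer samples. With the covariate for reads outside annotated genes, 67 genes of the table, 1 receptor gene (1 higher, 0 lower) and 2 pathway genes, Cited2 and Dio2, were called; the cause was not tested. Median-ratio size factors, limma-voom, no filter beyond 1 read and no robust dispersion each called 7 receptor genes, while DESeq2 called 6, and so did the 5 CPM filter, which leaves out Nr2f2. In the covariate fit the log2 fold changes of receptor genes that were not called changed sign for Rara (0.13), Thrb (0.16), Nr1h3 (1.04), Nr1d2 (-0.11), Nr2c1 (0.0865), Nr2c2 (-0.13), Nr2f6 (0.24) and Nr3c2 (-0.15). Leaving out 1 library did the same for Thrb (-0.43 to 0.084), Ppard (-0.0532 to 0.0218), Nr1h3 (-0.63 to 0.015), Nr1d1 (-0.23 to 0.0909), Nr4a2 (-0.0807 to 0.28), Nr4a3 (-0.30 to 0.14) and Nr6a1 (-0.32 to 0.0383). No called receptor gene changed sign in any of the 13 alternatives. Per2 was not called by limma-voom (adjusted p = 0.0508) or with no robust dispersion (0.0525). No paired analysis was possible because the labels give the groups no shared replicate numbers. Depth limits the 17 receptor genes that were not tested and Nr2f2, whose call rests on 3 to 27 reads a library.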
